A study of Drosophila melanogaster with 12 samples.

Results

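The nervous system genes described here are 36 genes of synaptic transmission and neuronal signalling in Drosophila melanogaster, named by symbol as a list of genes with a role in neurons. No measured value enters the rule, but the list was drawn up with earlier results of these data known. All 36 were found by symbol among the 15130 genes counted at 10 days and the 15261 genes counted at 30 days, and 14760 genes were counted at both ages. The list holds the neuronal RNA-binding protein elav, 3 SNARE proteins, 5 vesicle proteins, 3 active zone proteins, 4 vesicular transmitter transporters, 4 transmitter synthesis enzymes, 2 monoamine transporters, 5 ion channels, 4 nicotinic receptor subunits, 2 chloride channels, and the neuronal cytoskeleton, surface and scaffold genes futsch, Appl and dlg1. On the RefSeq annotation of release 6, 7 of them lie on the X chromosome (elav, Appl, futsch, dlg1, cac, para and Sh) and 29 on the arms 2L, 2R, 3L and 3R.

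The flies were of the w1118 strain, which all groups share. They came from synchronized eggs, were taken as mated at 3 days, were then separated by sex and were kept on SY10, a diet of sugar and yeast. Whole flies, 10 per sample, were taken at an age of 10 or 30 days. Females and males at each age make 4 groups with 3 libraries each, from 3 independent experiments per group, and poly(A) mRNA was sequenced. A whole fly sample holds brain and nerve cord together with gonads, muscle, gut and fat body, so a level in it is the share of a gene in the mRNA of the entire animal.

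Neurons pass signals at synapses. Vesicles are filled with transmitter by a vesicular transporter, dock at the active zone, and fuse with the plasma membrane when calcium enters, through the joining of vesicle and membrane SNARE proteins and a calcium sensor. In flies the main fast excitatory transmitter of the brain is acetylcholine, that of the nerve-muscle synapse is glutamate, and GABA is the main inhibitory transmitter.

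Library totals ranged from 23097763 to 62924598 counts. The smallest was male replicate 2 at 30 days, which also had the lowest level of the 6 male libraries for 24 of the 36 members. Without it no call of the sex difference against all mRNA at 30 days was lost except that of DAT, and the median over the members at that age was 4.08 where it was 3.92 with it. The sexes differed in the markers of other tissues. Summed over 16 ovary genes, CPM (counts scaled to a common library size) was 3199 to 6839 in females and 168 to 322 in males, with 5 to 16 of the 16 genes counted in a male library. Of 19 testis genes (18 of them in the 30-day table) the sum was 1865 to 3557 in males and 4.77 to 10.2 in females, and of 13 accessory gland genes it was 5365 to 6848 in males and at most 1.13 in females. Sums of other tissue markers also did not overlap between the sexes. In the same libraries 15 glia genes summed to 1329 to 1604 CPM in males and 189 to 417 in females. A sum of 29 muscle genes reached 9959.6 to 13144 CPM in males and 3138 to 5978 in females, and that of 31 photoreceptor genes 7622 to 10524 in males and 733 to 2378 in females. How far each tissue contributes to the sex differences below was not tested. In whole flies, fewer cells of a type and less RNA per cell cannot be told apart.

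The 36 genes together took 0.319% to 0.386% of the counts of a male library at 10 days and 0.259% to 0.482% at 30 days. In female libraries they took 0.0829% to 0.0880% at 10 days and 0.0700% to 0.0842% at 30 days, so the ranges of the sexes did not overlap. Counts of the members in a library were above 0 in 427 of 432 cases. All 5 cases of 0 counts were in females and concerned 3 genes of low level, VGAT, Trhn and DAT. A count of 0 allows up to 3 counts.

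**Figure D1:**
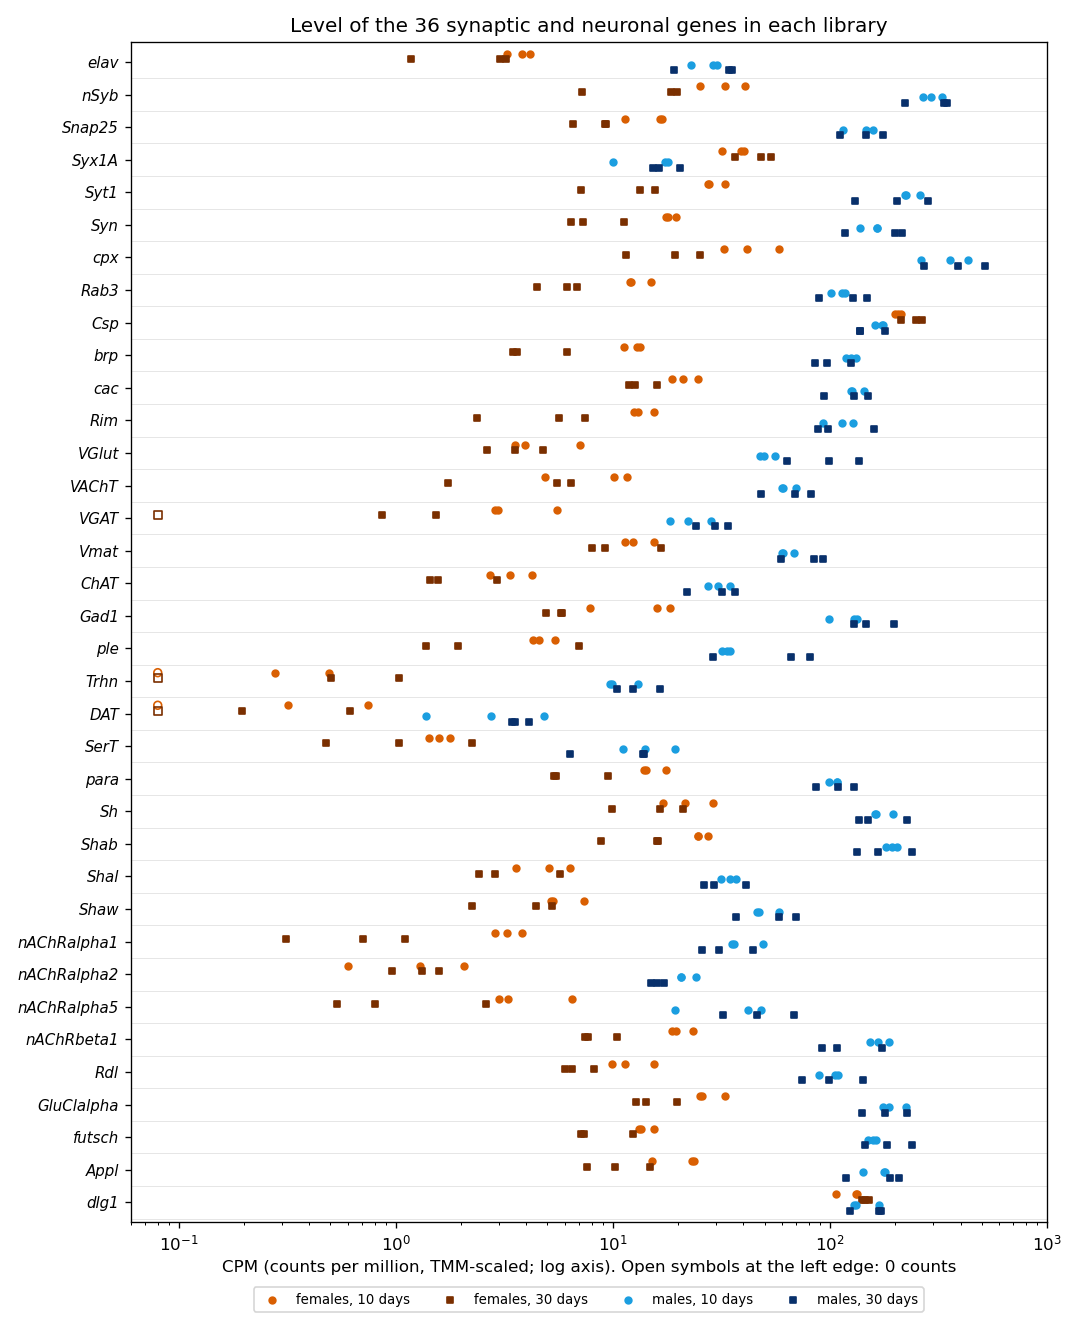
Level of each of the 36 genes (rows, ordered by role) in each of the 12 libraries, as CPM with TMM scaling on a log axis. Each point is a library, with females in orange (circles 10 days, dark squares 30 days) and males in blue. For 33 genes every male point lies to the right of every female point of the same age at both ages, Syx1A and Csp lie the other way, and dlg1 overlaps. The 5 open symbols at the left edge are libraries with 0 counts.

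Levels were also read per kilobase of exon, to compare different genes. The length was the union of all annotated exons of a gene, which can exceed that of any single transcript, so the order is approximate. On this measure the order within males was led by the vesicle SNARE nSyb with 72.8 ± 7.73 CPM per kb (SD, n = 3) at 10 days. It was followed by its membrane partner Snap25 with 61.4 ± 9.77, the nicotinic subunit nAChRbeta1 with 56.9 ± 5.66 and the vesicle chaperone Csp with 55.3 ± 2.31. These last 3 differed from each other by less than the spread of Snap25. The median of the 36 genes was 9.06 CPM per kb, and the lowest was the dopamine transporter DAT with 0.984 ± 0.574. Females of 10 days had a different order. Csp led with 66.9 ± 2.35, followed by dlg1 with 10.7 ± 1.31 and Syx1A with 8.88 ± 1.10, and nSyb with 8.08 ± 1.92 differed from Syx1A by less than the spread. The female median was 1.31 CPM per kb. At 30 days nSyb had the highest mean in males with 74.0 ± 16.8, which exceeded that of Snap25, 63.6 ± 14.2, by less than the spread of either, and Csp in females with 79.1 ± 8.86, and the medians were 10.6 and 0.796 CPM per kb.

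The first comparison asked how the sexes differ at each age. All 36 genes passed the filter on low counts. At 10 days 32 genes were higher expressed in males, Syx1A and Csp were lower expressed, and dlg1 and DAT did not pass the test (edgeR quasi-likelihood test, Benjamini-Hochberg adjusted p below 0.05 over all genes, the threshold for every call below). Of all 13334 genes tested, 46.8% were called higher in males and 31.6% lower. At 30 days 33 genes were higher in males, Syx1A and Csp were lower, and dlg1 alone did not pass, where 48.4% of all 13013 genes were called higher and 30.4% lower. The median log2 fold change of the members, males over females, was 2.96 at 10 days and 3.92 at 30 days, compared with 1.06 and 1.32 over all genes tested. Normalized values of the sexes did not overlap for 35 members at each age, 33 of them higher and 2 lower in males, where over all genes 50.6% were higher and 33.6% lower without overlap at 10 days and 52.7% and 32.2% at 30 days. The calls are against the total mRNA of the fly, with TMM scaling.

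elav (gene 31000), the RNA-binding protein that serves as a marker of neurons, had 22.8, 28.9 and 30.3 CPM in the 3 male libraries of 10 days and 4.16, 3.25 and 3.81 in the female libraries. The libraries of 30 days gave 34.1, 19.0 and 35.5 CPM for males against 3.22, 1.18 and 3.00 for females. The male libraries lay far above the female libraries at both ages, and male replicate 2 was the lowest male library at 30 days. The log2 fold change of males over females, given with its SE here and below, was 2.79 ± 0.24 at 10 days (adjusted p = 4.47e-05) and 3.55 ± 0.50 at 30 days (adjusted p = 3.82e-04). Exons of elav share 27.9% of their length with a noncoding RNA gene of the same strand in the BDGP6.54 annotation, lncRNA:enrr, and how the authors assigned such reads is not given in the sources used here.

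The SNARE proteins of the vesicle and the plasma membrane split. nSyb (gene 38196), the vesicle SNARE of neurons, had 291, 330.3 and 268 CPM in males and 32.9, 40.7 and 25.1 in females of 10 days. In the older flies nSyb had 347, 223 and 335 CPM (males) and 19.9, 7.24 and 18.5 (females), where female replicate 2 was the lowest. The log2 fold change of nSyb was 3.08 ± 0.25 at 10 days (adjusted p = 3.57e-05) and 4.28 ± 0.41 at 30 days (adjusted p = 5.92e-05). Snap25, a membrane SNARE of neurons, went the same way with 3.14 ± 0.25 and 4.08 ± 0.26. The other membrane SNARE, Syx1A, went the opposite way, and its values are given with those of Csp and dlg1 below.

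Among the vesicle proteins, the calcium sensor Syt1 (gene 33473) had 222, 260.4 and 225 CPM in males and 27.6, 27.5 and 33.0 in females of 10 days. The 30-day values of Syt1 were 285, 131 and 204 (males) and 15.7, 7.16 and 13.4 (females). Groups did not overlap at either age, with log2 fold changes of 2.93 ± 0.12 (adjusted p = 6.00e-06) and 4.06 ± 0.40 (adjusted p = 6.20e-05). Synapsin (Syn), which tethers vesicles, complexin (cpx), which binds the SNARE complex, and the vesicle GTPase Rab3 lay close together. Their log2 fold changes were 2.90 to 3.02 at 10 days and 4.34 to 4.38 at 30 days. The 3 active zone genes were called higher in males. The scaffold protein brp (gene 35977) had 132, 126 and 118 CPM in males and 12.9, 11.3 and 13.3 in females at 10 days, and 125, 85.0 and 97.0 (males) and 3.47, 3.64 and 6.12 (females) at 30 days. Its log2 fold change was 3.26 ± 0.13 (adjusted p = 5.68e-06) and then 4.50 ± 0.32 (adjusted p = 1.99e-05). Rim, another scaffold, had 2.95 ± 0.17 and 4.45 ± 0.47. The presynaptic calcium channel cac differed least of the 3, with 2.55 ± 0.15 and 3.16 ± 0.25.

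The genes that mark transmitter types were called higher in males at both ages, with the exception of DAT at 10 days. For glutamate, the vesicular transporter VGlut (gene 33427) had 47.8, 55.8 and 49.8 CPM in males and 3.94, 7.09 and 3.55 in females of 10 days. The 30-day libraries held 136, 63.5 and 98.7 (males) and 2.64, 3.54 and 4.78 (females), so the male libraries of 30 days lay above all those of 10 days. The log2 fold changes of VGlut were 3.29 ± 0.36 (adjusted p = 1.47e-04) and 4.72 ± 0.39 (adjusted p = 3.11e-05). For acetylcholine, the vesicular transporter VAChT (gene 42795) had 59.9, 70.1 and 61.1 CPM in males and 10.1, 11.7 and 4.86 in females of 10 days. Its 30-day values were 81.8, 48.1 and 68.9 (males) and 6.45, 1.74 and 5.53 (females). The synthesis enzyme ChAT (gene 42249), whose gene encloses that of VAChT, had 27.5, 34.6 and 30.4 CPM in males and 4.24, 3.37 and 2.70 in females of 10 days, and 36.5, 22.05 and 31.9 (males) and 1.43, 1.57 and 2.91 (females) at 30 days. VAChT and ChAT gave close log2 fold changes, 2.74 ± 0.37 and 3.08 ± 0.27 at 10 days and 3.83 ± 0.51 and 3.89 ± 0.44 at 30 days. They share 606 bases of exon on the same strand, 15.1% of the exons of ChAT, so the reads of that stretch cannot be assigned to either with certainty.

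For GABA, the synthesis enzyme Gad1 (gene 38484) had 134, 129 and 99.3 CPM in males and 15.99, 18.4 and 7.81 in females of 10 days. Gad1 had 198, 129 and 147 CPM (males) and 5.80, 4.91 and 5.80 (females) at 30 days, the last 3 all below the female libraries of 10 days. The log2 fold change of Gad1 was 3.00 ± 0.38 (adjusted p = 2.91e-04) at 10 days and 4.80 ± 0.24 (adjusted p = 7.59e-06) at 30 days. The vesicular GABA transporter VGAT had 0, 0.868 and 1.53 CPM in females of 30 days, with 0 counts in replicate 1, and 34.0, 24.1 and 29.6 in males. Its log2 fold change at 30 days, 5.14 ± 1.16, has a wide error, compared with 2.49 ± 0.40 at 10 days.

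The monoamine genes include the least abundant members. The tyrosine hydroxylase ple (gene 38746), which starts dopamine synthesis, had 31.7, 34.8 and 33.6 CPM in males and 5.40, 4.31 and 4.58 in females of 10 days. At 30 days ple had 80.8, 29.0 and 66.5 (males) and 1.93, 1.38 and 7.01 (females), a wide spread in both sexes. Its log2 fold changes were 2.73 ± 0.20 (adjusted p = 2.65e-05) and 4.07 ± 0.72 (adjusted p = 0.00117). The neuronal tryptophan hydroxylase Trhn, which starts serotonin synthesis, had 13.02, 9.74 and 9.94 CPM in males and 0.491, 0.277 and 0 in females of 10 days, the zero being female replicate 3. The 30-day values were 10.5, 12.4 and 16.6 (males) and 1.03, 0 and 0.501 (females). Trhn had the largest fitted log2 fold change of the 36 genes at 10 days, 5.29 ± 1.15 (adjusted p = 0.00429), and a large error. DAT, the membrane transporter of dopamine, had 2.75, 4.84 and 1.38 CPM in males and 0.744, 0 and 0.319 in females of 10 days. Its log2 fold change was 3.03 ± 1.43 (adjusted p = 0.0887) at 10 days, where DESeq2 called it higher in males with 3.22 (adjusted p = 0.0253), and 3.72 ± 1.30 (adjusted p = 0.0296) at 30 days. The call at 30 days was lost without female replicate 2 and without each of the male replicates in turn, with adjusted p up to 0.0780. The serotonin transporter SerT had 3.15 ± 0.35 and 3.14 ± 0.70. Vmat, which fills vesicles with monoamines, showed the smallest difference of the transmitter genes, 2.20 ± 0.18 at 10 days and 2.77 ± 0.35 at 30 days. It shares 26.2% of its exons with CG13330 on the opposite strand.

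The voltage-gated channels differed little from each other. The sodium channel para (gene 32619), which carries the action potential, had 107, 108 and 98.8 CPM in males and 13.9, 14.2 and 17.6 in females of 10 days. Its libraries of 30 days had 129.6, 109 and 86.5 (males) and 5.35, 5.47 and 9.47 (females). The log2 fold changes of para were 2.71 ± 0.14 (adjusted p = 8.81e-06) and 3.96 ± 0.31 (adjusted p = 2.71e-05). The potassium channel Sh (gene 32780) had 163, 195 and 161 CPM (males) and 21.6, 17.1 and 29.1 (females) at 10 days, and 227, 136 and 149.8 (males) and 21.1, 9.91 and 16.5 (females) at 30 days. Its log2 fold changes were 2.88 ± 0.18 (adjusted p = 1.47e-05) and 3.40 ± 0.33 (adjusted p = 6.47e-05). Together with the related potassium channels Shab, Shal and Shaw the range was 2.69 to 3.00 at 10 days and 3.10 to 3.96 at 30 days.

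Among the receptors, nAChRalpha1 and nAChRalpha5 had the highest values of the 36 members at 30 days, and the other 4 lay below the median of the members. nAChRalpha1 (gene 42918), a subunit of the nicotinic acetylcholine receptor, had 35.5, 36.2 and 49.2 CPM in males and 3.81, 3.27 and 2.87 in females of 10 days. At 30 days nAChRalpha1 had 44.3, 25.9 and 30.8 (males) and 1.10, 0.311 and 0.706 (females). Its female mean per kb was the lowest of the 36 genes at that age. In CPM the female means of DAT (0.270) and Trhn (0.510) were below that of nAChRalpha1 (0.705). The log2 fold change of nAChRalpha1 was 3.52 ± 0.25 (adjusted p = 2.37e-05) at 10 days and 5.55 ± 0.56 (adjusted p = 7.13e-05) at 30 days. nAChRalpha2 stood at 3.95 ± 0.50 and 3.59 ± 0.43, nAChRalpha5 at 3.00 ± 0.51 and 5.19 ± 0.68. The subunit nAChRbeta1 had 2.97 ± 0.15 and 3.82 ± 0.31. The GABA receptor Rdl (gene 39054), a chloride channel, had 89.4, 109 and 106 CPM in males and 11.4, 9.91 and 15.4 in females of 10 days, and 143, 74.5 and 98.9 (males) and 6.51, 5.99 and 8.22 (females) at 30 days. Rdl gave 2.99 ± 0.18 (adjusted p = 1.23e-05) and 3.89 ± 0.31 (adjusted p = 2.67e-05). The glutamate-gated chloride channel GluClalpha gave 2.73 ± 0.14 and 3.51 ± 0.26. Of the remaining genes, futsch, which binds microtubules in axons, gave 3.40 ± 0.16 and 4.36 ± 0.31, and Appl, the fly relative of the amyloid precursor protein, gave 2.92 ± 0.25 and 3.94 ± 0.33.

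**Figure D2:**
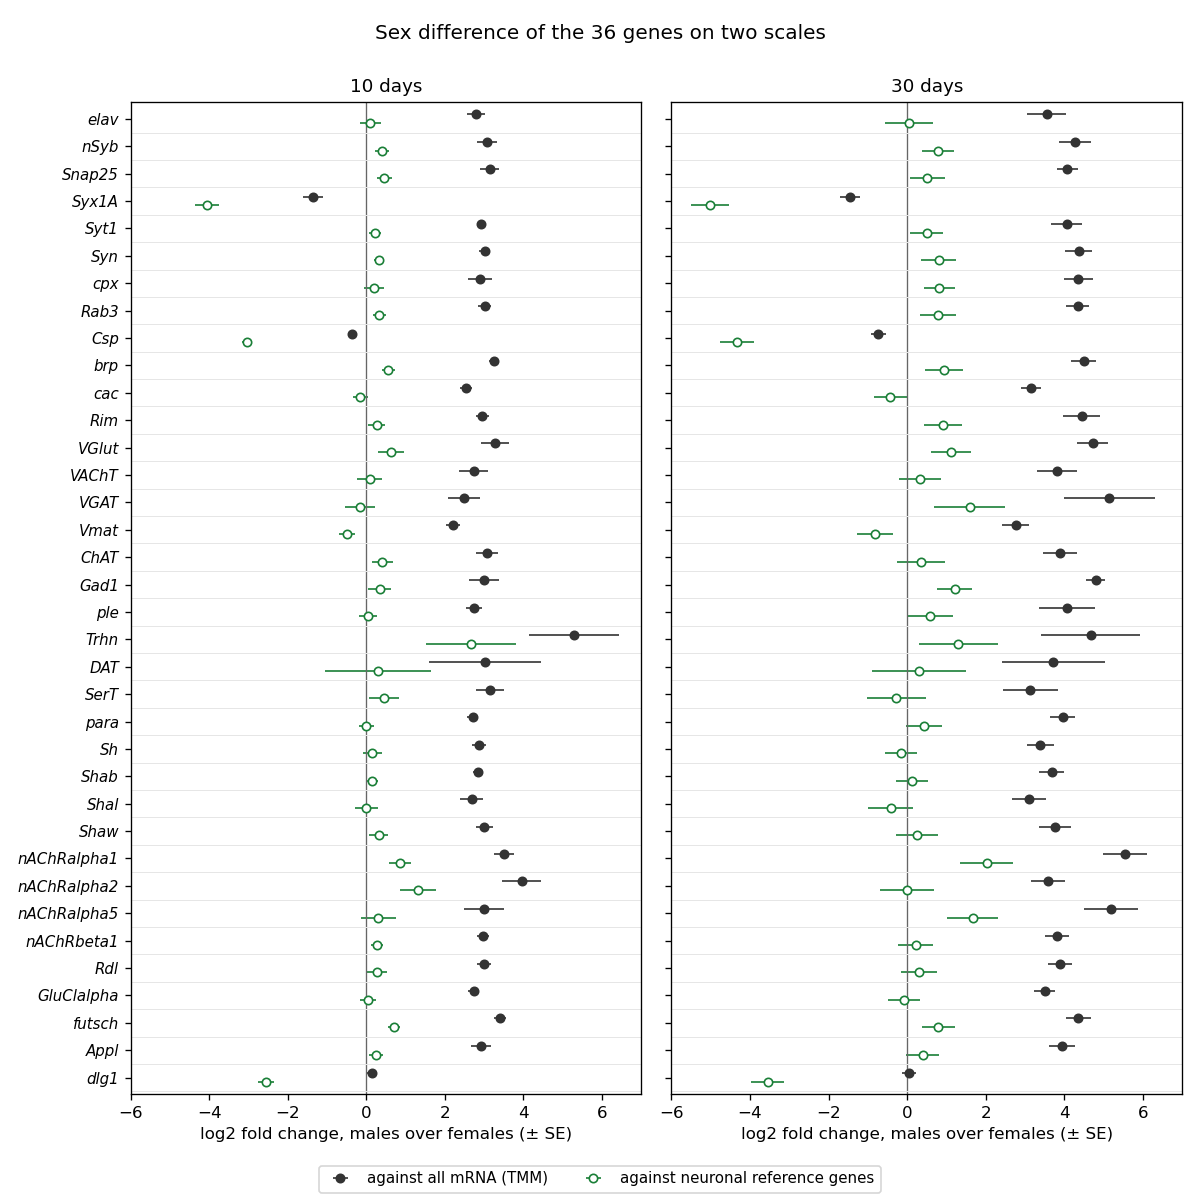
Log2 fold change of males over females (x axis, with SE as bars) for each of the 36 genes at 10 days and at 30 days. Filled points are against all mRNA (TMM) and open points against neuronal reference genes. Against all mRNA the members have a median of 2.96 and 3.92, and against the neuronal reference genes 0.27 and 0.37, with Syx1A, Csp and dlg1 far to the left.

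Syx1A, Csp and dlg1 departed from the other members. Syx1A (gene 42854), the membrane SNARE that pairs with nSyb and Snap25, had 10.1, 17.9 and 17.4 CPM in males and 39.0, 31.7 and 40.1 in females of 10 days. In the older flies Syx1A had 16.2, 15.4 and 20.4 CPM (males) and 36.7, 48.3 and 53.6 (females). Every female library exceeded every male library, and the log2 fold change was -1.36 ± 0.25 (adjusted p = 0.00192) at 10 days and -1.46 ± 0.26 (adjusted p = 0.00122) at 30 days. In flies Syx1A is also needed when the early embryo forms cells. Exons of Syx1A share 447 bases, 10.7% of their length, with eIF4EHP on the same strand, a translation repressor gene that had 164 to 199.9 CPM in females and 89.3 to 127 CPM in males. The part of such reads in the counts of Syx1A was not tested. Csp (gene 40459), a co-chaperone on the vesicle membrane, had 174, 162 and 175 CPM in males and 206, 213 and 199 in females of 10 days. At 30 days Csp had 179.6, 138 and 137 (males) and 214, 267 and 249.8 (females). The difference of Csp was small beside that of the members other than dlg1, -0.36 ± 0.12 (adjusted p = 0.0263) and -0.73 ± 0.18 (adjusted p = 0.00704). The call at 30 days was lost with upper quartile scaling (-0.39), and that at 10 days was lost with RLE scaling (-0.14, adjusted p = 0.182) or upper quartile scaling (-0.14, adjusted p = 0.200). It was also lost without female replicate 1, female replicate 2 or male replicate 2, where the adjusted p was at most 0.0680, and with DESeq2 (-0.14, adjusted p = 0.111). dlg1 (gene 32083), a scaffold of synapses and of epithelial junctions, had 132, 129.5 and 168 CPM in males and 133, 106 and 131 in females of 10 days. At 30 days dlg1 had 168, 124 and 172 (males) and 140.2, 151 and 145 (females), and the sexes overlapped at both ages. Its log2 fold change was 0.14 ± 0.13 (adjusted p = 0.363) and 0.05 ± 0.18 (adjusted p = 0.815), and it had the opposite sign, without a call, when libraries were scaled to total counts. At 10 days DESeq2 called dlg1 higher in males, with 0.34 (adjusted p = 0.0370).

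**Figure D3:**
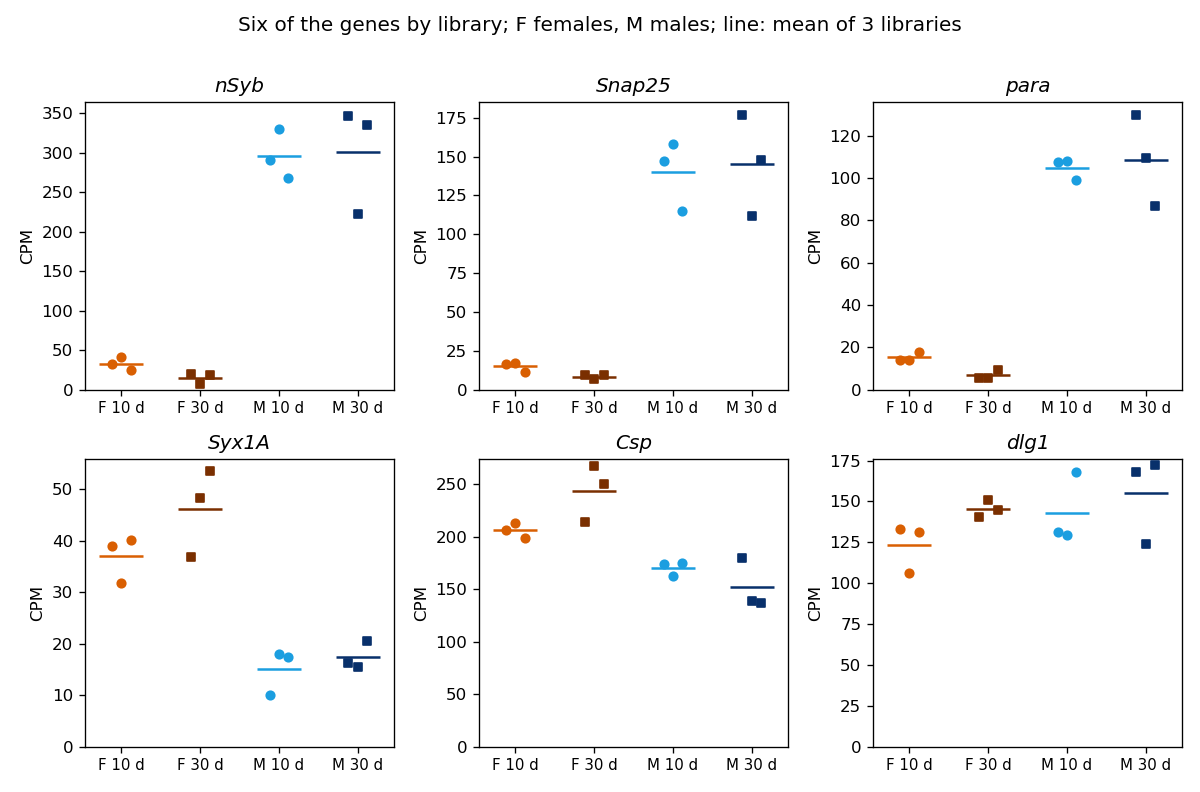
CPM of 6 genes (y axis, from 0) in females (F) and males (M) at 10 and 30 days, each point a library and each line the mean of 3. nSyb, Snap25 and para in the upper row stand above the female libraries in every male library. In the lower row Syx1A and Csp are lower in males, and dlg1 overlaps between the sexes.

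The balance within a library, which no scaling can move, shows the same split. Per 100 counts of nSyb, male libraries of 10 days held 3.45, 5.43 and 6.50 counts of Syx1A and female libraries 119, 77.9 and 159.9. At 30 days males held 4.68, 6.91 and 6.11 and females 185, 667 and 289.9. Snap25 kept nearly the same proportion to nSyb in both sexes, 50.5, 47.9 and 43.0 per 100 in males and 50.3, 41.3 and 45.4 in females of 10 days, with female replicate 2 of 30 days apart from the others at 90.3. Csp ranged from 41.0 to 65.4 per 100 counts of nSyb in the 6 male libraries and from 524 to 3691 in the 6 female libraries. dlg1 ranged from 39.2 to 62.7 in males and from 261 to 2085 in females. The more widely expressed relatives of nSyb and Snap25 were not called higher in males, unlike nSyb and Snap25 themselves. Against all mRNA at 10 days, Syb had -0.05, Snap24 -1.26 and Snap29 -0.69, of which Snap24 and Snap29 were called lower. At 30 days they had 0.24, -1.29 and -0.71, of which Snap24 was called lower.

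Each gene was also set against other genes of neurons. The neuronal scale divides by the geometric mean of reference genes that hold no member (40 of 41 listed were used at 10 days, and 37 at 30 days and in the fit of both ages). Against all mRNA the log2 fold changes of the reference genes at 10 days ran from -0.86 to 3.62, with a median of 2.91, so that not all of them were higher in males. On this scale 4 members were higher in males at 10 days and 3 were lower, where 22.3% of all genes were called higher and 52.6% lower. At 30 days 3 were higher and 3 lower, against 20.7% and 54.4%. The median of the members was close to 0, at 0.27 at 10 days and 0.37 at 30 days, compared with -1.63 and -2.20 over all genes and with 0.24 and 0.34 over the reference genes. At 10 days 30 of the 36 genes had a positive value, and at 30 days 27.

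The 3 genes lower in males on the neuronal scale were Syx1A, Csp and dlg1 at both ages. Their log2 fold changes were -4.06 ± 0.30, -3.04 ± 0.13 and -2.55 ± 0.20 at 10 days, and -5.02 ± 0.49, -4.33 ± 0.44 and -3.54 ± 0.42 at 30 days. These calls held in every alternative of this scale that was run. The fourth lowest value was that of Vmat, -0.49 ± 0.19 (adjusted p = 0.0537) and -0.82 ± 0.47 (adjusted p = 0.121). Higher in males at 10 days were brp with 0.56 ± 0.17 (adjusted p = 0.0179), futsch with 0.71 ± 0.15 (adjusted p = 0.00339), nAChRalpha1 with 0.85 ± 0.29 (adjusted p = 0.0286) and nAChRalpha2 with 1.31 ± 0.47 (adjusted p = 0.0355). The call of futsch held without each library in turn, and those of the other 3 did not, so that without male replicate 1 of 10 days only futsch of these 4 was called. brp was also lost without female replicates 1 or 2, nAChRalpha1 without female replicate 3 or male replicate 3, and nAChRalpha2 without female replicate 2 or any male replicate. At 30 days nAChRalpha1 was again higher with 2.02 ± 0.68 (adjusted p = 0.0102), together with nAChRalpha5 with 1.67 ± 0.65 (adjusted p = 0.0234) and Gad1 with 1.21 ± 0.45 (adjusted p = 0.0177). Without male replicate 3 of 30 days none of these 3 was called, and without male replicate 1 only nAChRalpha1 was. Gad1 was also lost without female replicates 1 or 3, and nAChRalpha5 without female replicate 1. Trhn had the highest value at 10 days, 2.68 ± 1.14, without passing the test (adjusted p = 0.0690).

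The other members did not pass the test on the neuronal scale at the age in question. At 10 days the values were 0.11 ± 0.28 for elav, 0.41 ± 0.17 for nSyb, 0.23 ± 0.16 for Syt1 and 0.00 ± 0.19 for para. VAChT had 0.09 ± 0.32, ChAT 0.40 ± 0.27, VGlut 0.63 ± 0.32 and Gad1 0.34 ± 0.30. Sh, ple and Rdl had 0.15 ± 0.24, 0.04 ± 0.24 and 0.27 ± 0.25. At 30 days the errors were larger. elav had 0.05 ± 0.61, nSyb 0.78 ± 0.41, Syt1 0.50 ± 0.42, para 0.43 ± 0.47 and VGlut 1.11 ± 0.51. brp had 0.95 ± 0.49, VGAT 1.59 ± 0.91 and Trhn 1.30 ± 1.01. VAChT, ChAT and ple had 0.34 ± 0.53, 0.35 ± 0.61 and 0.58 ± 0.60, and Sh and Rdl -0.16 ± 0.41 and 0.29 ± 0.46. cac, Vmat, SerT, Sh, Shal and GluClalpha were the genes with a positive value against all mRNA and a value below 0 against neuronal genes at 30 days, as were cac, VGAT and Vmat at 10 days, and dlg1 at both ages. Only that of dlg1 was called on the neuronal scale.

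Scales built on genes of muscle and of photoreceptors were also used. Against muscle genes 30 members were higher and 3 lower in males at 10 days, with a median of 1.36, where 30.2% of all genes were called higher and 45.9% lower. At 30 days 31 were higher and 3 lower, with a median of 2.14, against 31.6% and 45%. Against genes of photoreceptors, which are nerve cells of the eye, 3 members were higher and 3 lower at each age, with medians of 0.23 and 0.44. The higher ones were Trhn, nAChRalpha2 and futsch at 10 days and nAChRalpha1, nAChRalpha5 and Gad1 at 30 days. The shares over all genes on that scale were 22.4% higher and 51.5% lower at 10 days, and 20.8% and 54.5% at 30 days. The 3 lower genes were Syx1A, Csp and dlg1 on both scales at both ages.

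Further lists of synaptic genes are described by their counts, beside 46.8% of all genes higher and 31.6% lower in males against all mRNA at 10 days, and no difference between lists was tested. Of 14 genes of the release machinery, 12 were higher and 1 lower in males against all mRNA at 10 days, with a median of 2.07. The largest value was that of the active zone gene Fife, 3.29, and the lower gene was Nsf2 with -0.84. Of 9 vesicle endocytosis genes tested, 3 were higher and 3 lower, with a median of -0.18, from Dap160 with 1.15 to the adaptor gene AP-2alpha with -1.78. Of 18 relatives of the SNARE and synaptotagmin genes, 7 were higher and 5 lower, with a median of -0.02. The shares of called endocytosis genes and SNARE relatives were near or below those of all genes. The higher ones included Syt14 with 4.22 and Sytalpha with 3.31, and the lowest was Syx13 with -1.87. Most receptor and channel genes were higher in males. Of 5 other nicotinic subunits 4 were higher, led by nAChRalpha6 with 3.32, and nAChRalpha4 was lower with -1.15. Of 23 other transmitter receptors 20 were higher and none lower, led by the histamine receptor HisCl1 with 4.11, with a median of 2.71. Of 22 other ion channels 20 were higher and none lower, with a median of 2.84 and the largest value at the channel complex gene unc80, 3.62. Of 10 neuronal adhesion genes 9 were higher and none lower, with a median of 2.98, and the called values ran from Nrg with 0.98 to Nlg4 with 4.17. At 30 days, where 48.4% of all genes were higher and 30.4% lower, the counts of higher and lower genes were 11 and 2 for release, 3 and 3 for endocytosis, 7 and 4 for the SNARE relatives, 4 and 0 for nicotinic subunits, 19 and 0 for receptors, 21 and 1 for channels, and 9 and 0 for adhesion.

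On the neuronal scale all 9 endocytosis genes were lower in males at both ages and none was higher, where 52.6% of all genes were lower at 10 days and 54.4% at 30 days. Of the 18 SNARE relatives, 11 were lower at 10 days and 12 at 30 days, shares near those of all genes, and none was higher, where 22.3% and 20.7% of all genes were. Syb, Snap24 and Snap29 had -2.73, -3.95 and -3.40 at 10 days. Of the 14 release genes, 1 was higher and 7 lower at 10 days, and 0 and 8 at 30 days. The receptor and channel lists had medians of 0.03 and 0.13 at 10 days and 0.23 and 0.04 at 30 days, but 22 genes of these lists are also among the neuronal reference genes, 9 of them channels, 6 receptors, 5 of the release machinery and 2 of adhesion, so their values on this scale are not independent of it. None of the endocytosis genes or SNARE relatives is.

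Values of X-linked and autosomal members overlapped. Against all mRNA the 7 X-linked members had a median log2 fold change of 2.79 at 10 days, 0.14 to 3.40, and the 29 autosomal members 3.00, -1.36 to 5.29. At 30 days the medians were 3.55 and 4.06. The difference between them was not tested.

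The next comparison concerned age. It rests on a fit of all 12 libraries with 14112 genes tested, and age cannot be told apart from any difference in handling between the ages. In males no member passed the test (edgeR), where 0.184% of all genes were called higher and 0.262% lower at 30 days. At an unadjusted p below 0.05, 1 member was higher, VGlut (5.52% of all genes), and none was lower. DESeq2 called 0 of the 32 members to which it gave an adjusted p, where it called 2.62% of all genes with an adjusted p higher and 4.25% lower. The median log2 fold change of the members, 30 over 10 days, was 0.05 (all genes -0.08), with a range from -0.45 to 0.96. VGlut had the highest value, 0.96 ± 0.33 (adjusted p = 0.262), and the 3 libraries of 30 days, given above, lay above the 3 of 10 days. limma-voom called it higher (adjusted p = 0.0174), as did a fit of the 6 male libraries alone (adjusted p = 0.0263). ple followed with 0.82 ± 0.53 (adjusted p = 0.621), where replicate 2 of 30 days lay below the libraries of 10 days and the other replicates above them. nAChRalpha5 with 0.42 ± 0.55 and Gad1 with 0.39 ± 0.28 came next. At the other end were nAChRbeta1 with -0.45 ± 0.23, nAChRalpha2 with -0.44 ± 0.40, SerT with -0.40 ± 0.53 and brp with -0.29 ± 0.22. The widely used markers were near 0 in males, with 0.11 ± 0.37 for elav, 0.02 ± 0.32 for nSyb, -0.19 ± 0.29 for Syt1 and 0.05 ± 0.23 for para. VAChT, ChAT, Sh and Rdl had 0.06 ± 0.43, -0.03 ± 0.32, -0.02 ± 0.29 and 0.05 ± 0.25, and nAChRalpha1 -0.26 ± 0.37. On the neuronal scale no member passed either, where 0.00709% of all genes were called higher and 0% lower, and 1 member, VGlut with 1.02 ± 0.38, had an unadjusted p below 0.05 (4.95% of all genes were higher by that rule). Next to it on that scale came ple with 0.86 ± 0.48, nAChRalpha5 with 0.49 ± 0.53 and DAT with 0.48 ± 1.41, and the lowest were nAChRbeta1 with -0.39 ± 0.26, nAChRalpha2 with -0.33 ± 0.51, SerT with -0.29 ± 0.56 and brp with -0.20 ± 0.28. Testis genes summed to 3423 to 3557 CPM in males of 10 days (19 genes) and 1865 to 3017 at 30 days (18 genes). Ovary genes summed to 281 to 322 and 168 to 215 CPM. The sums of the other marker and reference lists overlapped between the ages in males. The part of these tissues in the age values of males was not tested.

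**Figure D4:**
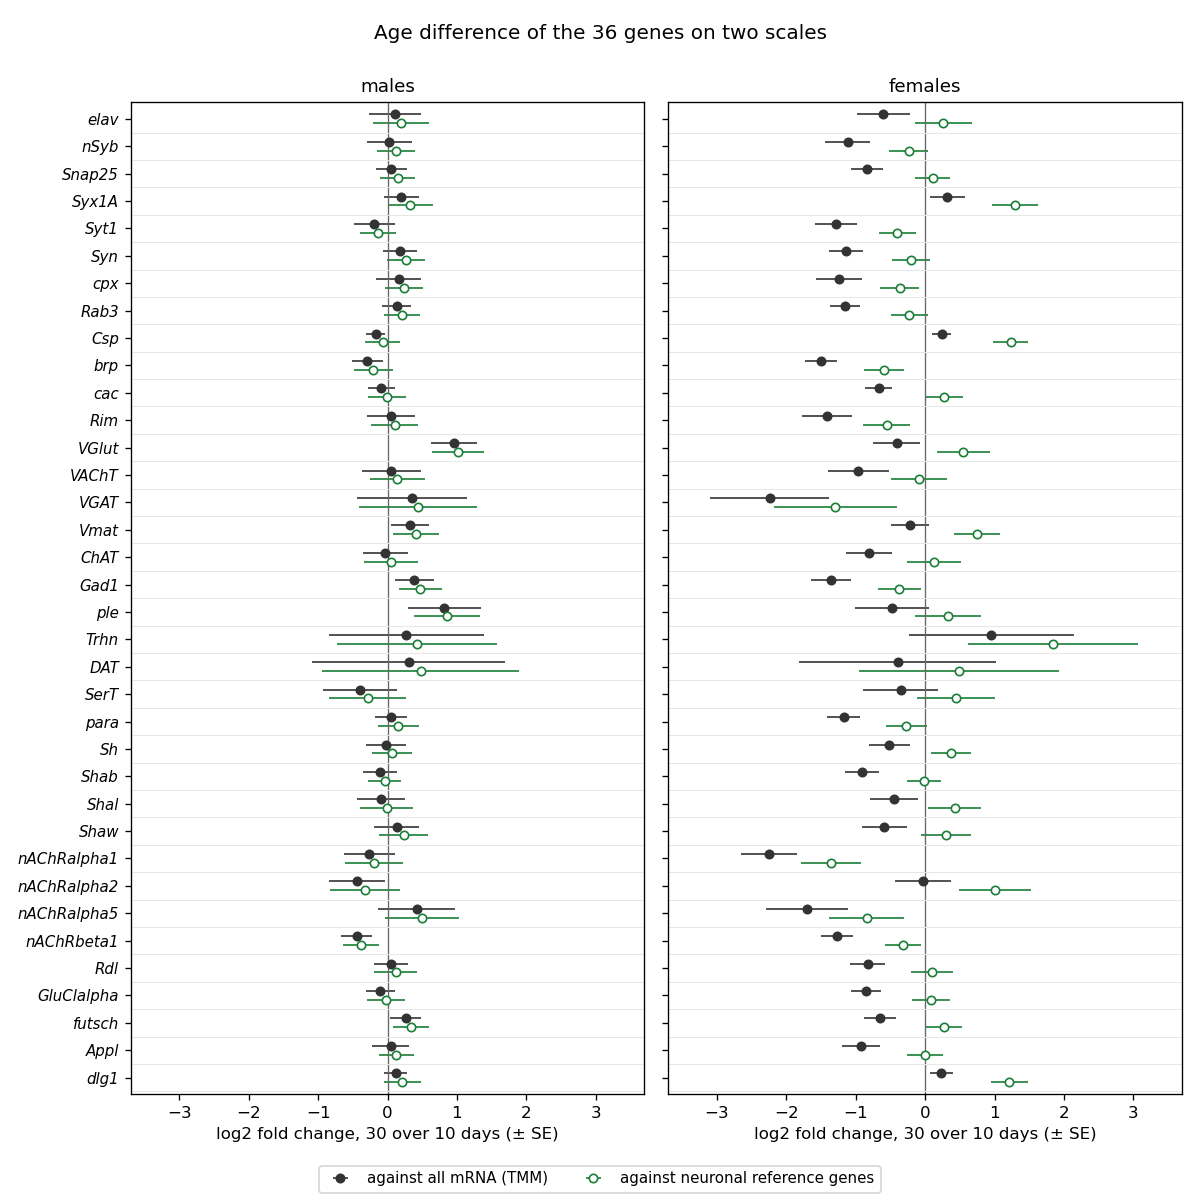
Log2 fold change of 30-day over 10-day flies (x axis, with SE as bars) for each of the 36 genes in males and in females, against all mRNA (filled) and against neuronal reference genes (open). In males the members scatter around a median of 0.05. In females most filled points lie left of 0, with a median of -0.83, and the open points scatter around 0.10 with Syx1A, Csp and dlg1 to the right.

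In females of 30 days brp and nAChRalpha1 were lower expressed than at 10 days, and no member was higher, where 0.305% of all genes were called lower and 0.0213% higher. The median log2 fold change was -0.83 for the members and 0.00 for all genes. 32 of the 36 members had a negative value, 21 of them lower with an unadjusted p below 0.05, where 9.62% of all genes were. In 21 members the libraries of 30 days lay entirely below those of 10 days and in 2 entirely above, where 8.61% and 5.12% of all genes did so. brp had 12.9, 11.3 and 13.3 CPM at 10 days and 3.47, 3.64 and 6.12 at 30 days, a log2 fold change of -1.50 ± 0.23 (adjusted p = 0.0257). nAChRalpha1 had 3.81, 3.27 and 2.87 CPM at 10 days and 1.10, 0.311 and 0.706 at 30 days, a log2 fold change of -2.25 ± 0.41 (adjusted p = 0.0490). The call of nAChRalpha1 is close to the threshold. brp was lost without female replicate 2 of 30 days (-1.41, adjusted p = 0.0566), and nAChRalpha1 was lost without female replicate 1 or 2 of 10 days and with RLE or upper quartile scaling. No member was called lower with limma-voom, with total counts or in a fit of the 6 female libraries alone. With DESeq2 14 members were called lower, where it called 3.4% of all genes lower. The number also depended on female replicate 3 of each age, since 8 members were called lower without that of 30 days, where 1.62% of all genes were, and 4 without that of 10 days, where 0.52% were, and the median was -1.21 without that of 30 days.

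Other members of the vesicle cycle had values of similar size in females without passing the test. Syt1 had -1.29 ± 0.30 (adjusted p = 0.110), nSyb -1.12 ± 0.33, Rab3 -1.16 ± 0.22 and Rim -1.41 ± 0.36. Among transmitter genes VGAT, with 0 counts in a library of 30 days, had -2.24 ± 0.85. Gad1 had -1.36 ± 0.29 (adjusted p = 0.0758), VAChT -0.96 ± 0.44, ChAT -0.80 ± 0.33, ple -0.48 ± 0.53 and VGlut -0.41 ± 0.34. nAChRalpha5 had -1.70 ± 0.59, para -1.17 ± 0.24, Rdl -0.83 ± 0.25, elav -0.60 ± 0.38 and Sh -0.51 ± 0.29. The highest values were those of Trhn with 0.96 ± 1.19, Syx1A with 0.32 ± 0.25, Csp with 0.24 ± 0.14 and dlg1 with 0.23 ± 0.16. Of the other lists, DopEcR, a receptor for dopamine and ecdysone, was called lower with -1.80, as were the channel subunit Teh2 with -1.95 and the synaptotagmin Syt7 with -1.45. Of the tissue markers, ovary genes summed to 5503 to 6839 CPM in females of 10 days and to 3199 to 3801 at 30 days, and glia genes to 285 to 327 and 189 to 417 CPM. Photoreceptor genes summed to 1332 to 2378 CPM in females of 10 days and 733 to 1413 at 30 days. The neuronal reference genes summed to 846 to 976 and 686 to 890.1 CPM, and the muscle genes to 4084 to 4724 and 3138 to 5978. The ovary sums did not overlap between the ages and the other sums did. The neuronal scale rests not on a sum but on the geometric mean of its reference genes. This mean as a share of total counts, relative to all 12 libraries, was 0.533, 0.516 and 0.434 in females of 10 days. At 30 days it was 0.288, 0.202 and 0.346 in females, without overlap. The part of these tissues in the differences with age was not tested.

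On the neuronal scale the difference with age in females had a median of 0.10 over the members (all genes 0.86), with 20 values above 0 and 16 below. Syx1A, Csp and dlg1 were called higher at 30 days with 1.29 ± 0.33, 1.23 ± 0.25 and 1.21 ± 0.27, where 38.5% of all genes were called higher. nAChRalpha1 was called lower with -1.36 ± 0.44 (adjusted p = 0.0259), where 1.2% were. Without female replicate 1 of 10 days none of these 4 genes was called, with values of 1.27, 1.18, 1.21 and -1.31. nAChRalpha1 was also lost without female replicate 2 of 10 days and without replicates 2 or 3 of 30 days, and Syx1A without replicate 2 of 30 days. Values of the remaining genes included -0.24 ± 0.28 for nSyb, -0.40 ± 0.27 for Syt1, -0.59 ± 0.29 for brp and 0.26 ± 0.41 for elav. At the ends lay Trhn with 1.84 ± 1.23, VGAT with -1.29 ± 0.88, nAChRalpha5 with -0.84 ± 0.54 and Rim with -0.55 ± 0.34. Other genes had 0.55 ± 0.38 (VGlut), -0.09 ± 0.40 (VAChT), 0.13 ± 0.39 (ChAT), -0.37 ± 0.31 (Gad1) and 0.33 ± 0.48 (ple). The channels and the GABA receptor had -0.27 ± 0.30 (para), 0.37 ± 0.29 (Sh) and 0.10 ± 0.31 (Rdl). On the muscle scale nAChRalpha1 was the 1 member called lower in females (background 0.248%). On the photoreceptor scale Syx1A, Csp and dlg1 were the 3 called higher (background 36.4%).

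**Figure D5:**
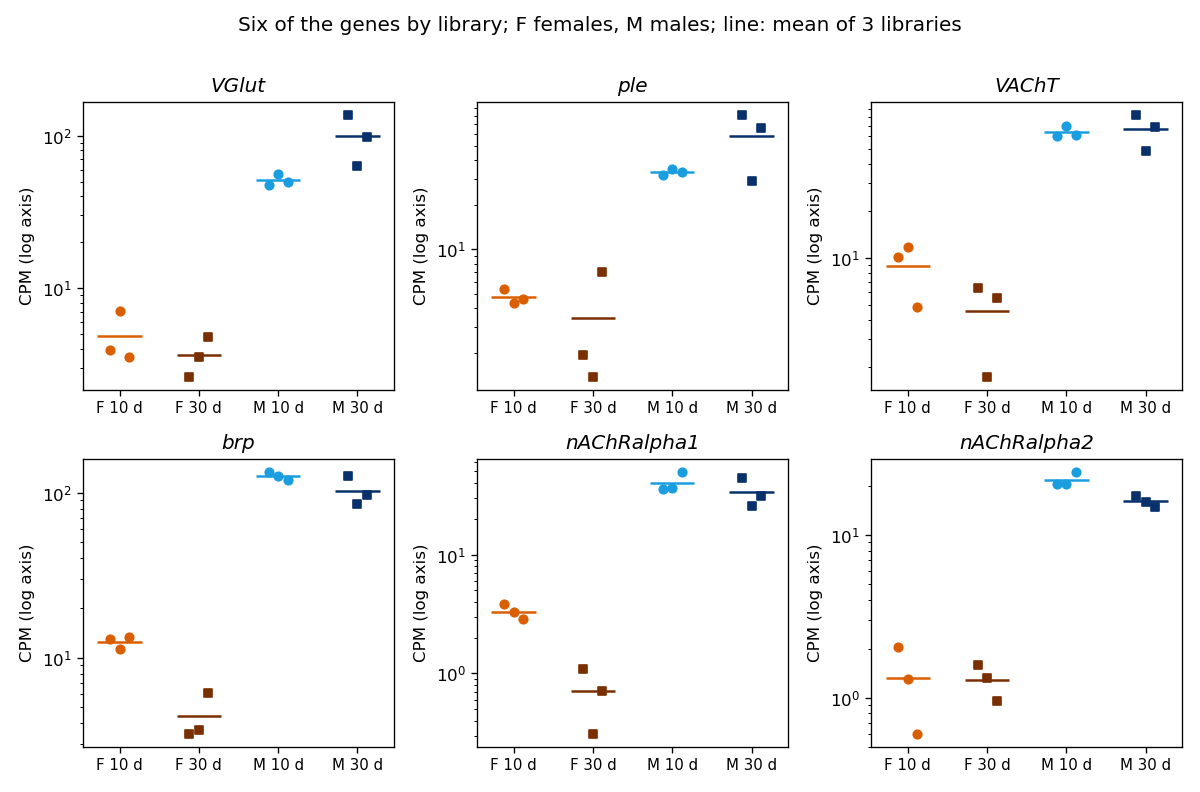
CPM of 6 genes (y axis, log) in females (F) and males (M) at 10 and 30 days, each point a library and each line the mean of 3. VGlut is above its 10-day values in every 30-day male library, and brp and nAChRalpha1 are below their 10-day values in every 30-day female library.

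Whether the sex difference itself changed with age was tested as an interaction. No member passed the test (edgeR), where 0.00709% of all genes were called in each direction, and 20 members had an unadjusted p below 0.05, all of them toward a larger male to female ratio at 30 days, where 6.8% of all genes did so. DESeq2 called 6 members toward a larger ratio, Syn, Rab3, brp, Gad1, para and nAChRalpha1, where it called 2.06% of all genes. The median change of the log2 ratio was 0.89 (all genes 0.02), and 30 of the 36 values were positive. The highest were VGAT with 2.59 ± 1.16, nAChRalpha5 with 2.12 ± 0.80, nAChRalpha1 with 1.99 ± 0.54 (adjusted p = 0.175) and Gad1 with 1.74 ± 0.40 (adjusted p = 0.117). The lowest were Trhn with -0.68 ± 1.62, Csp with -0.41 ± 0.19, nAChRalpha2 with -0.41 ± 0.57, dlg1 with -0.12 ± 0.23 and Syx1A with -0.12 ± 0.36. Further values were 0.72 ± 0.53 for elav, 1.14 ± 0.46 for nSyb, 1.10 ± 0.42 for Syt1, 1.21 ± 0.32 for brp and 1.37 ± 0.47 for VGlut. VAChT had 1.02 ± 0.61, ChAT 0.77 ± 0.46, ple 1.29 ± 0.75, para 1.22 ± 0.33, Sh 0.50 ± 0.41 and Rdl 0.88 ± 0.35. Without female replicate 3 of 30 days 3 members were called, Syn, brp and para, where 0.526% of all genes were, and without female replicate 3 of 10 days 1, Gad1, where 0.0763% were. On the neuronal scale no member passed, with a median of 0.03 (all genes -0.69), where 0.00709% of all genes were called higher and 0% lower, and 2 members had an unadjusted p below 0.05, Csp and dlg1, both toward a lower male to female ratio, where 25.8% of all genes did so. At the ends were VGAT with 1.74 ± 1.23, nAChRalpha5 with 1.34 ± 0.76, nAChRalpha1 with 1.16 ± 0.60 and Gad1 with 0.85 ± 0.43, and on the lower side Trhn with -1.42 ± 1.66, nAChRalpha2 with -1.34 ± 0.73, Csp with -1.31 ± 0.35 (adjusted p = 0.0801) and dlg1 with -1.001 ± 0.374.

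Ratios between transmitter systems were also taken within each library, as a description without a test. Per 100 counts of VAChT, male libraries held 79.8, 79.6 and 81.5 counts of VGlut at 10 days and 166, 132 and 143 at 30 days, so the ranges of the ages did not overlap. In females, with few counts of both genes, the numbers were 38.9, 60.7 and 73.0 and 41.0, 204 and 86.4. Gad1 stood at 223, 185 and 162 per 100 counts of VAChT in males of 10 days and 242, 267 and 214 at 30 days. ple stood at 52.9, 49.7 and 55.0 in males of 10 days and 98.8, 60.3 and 96.4 at 30 days, with replicate 2 of 30 days nearest to the younger flies. ChAT was the steadiest of these over the ages in males, with 45.9, 49.3 and 49.8 and 44.7, 45.9 and 46.2. In females it was not steady, with 41.9, 28.9 and 55.6 at 10 days and 22.2, 90.6 and 52.7 at 30 days. ChAT and VAChT share a stretch of exon, as given above, which limits this ratio. Among the nicotinic subunits, nAChRalpha1 made 19.0, 21.6 and 32.0 per 100 counts of nAChRbeta1 in males of 10 days and 25.6, 28.1 and 28.7 at 30 days. In females it made 16.3, 17.4 and 14.7 and then 14.7, 4.07 and 6.75, of which the values of replicates 2 and 3 at 30 days lay below all others.

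The spread between libraries was larger than counting alone gives. The median coefficient of variation of TMM-scaled CPM over the 36 genes was 10.9% in males and 15.7% in females of 10 days, and 24.9% and 35.1% at 30 days, where counting error would give 1.55%, 3.55%, 1.71% and 5.72%. The lower counts of VGAT, Trhn and DAT in females limit what can be said of these 3 genes.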

How the data were processed

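Poly(A) mRNA of whole w1118 flies was sequenced as 150 bp pairs. The authors mapped the reads, and the deposited tables hold raw counts per gene, one table per age. The aligner, genome build and strand setting are not given in the sources used here. Not used were 16 further columns of these tables (a second value per sample and group means, of a unit that is not stated) and short tables of the authors' FPKM and p-values. Columns for male replicates 1 and 2 of 30 days are numbered the other way round in the short tables, and the numbering of the count tables was kept.

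Genes were filtered with filterByExpr (at least 10 counts, 15 in total), scaled by TMM and tested with the quasi-likelihood test of edgeR 4.0.16 (R 4.3.3, limma 3.58.1) with Benjamini-Hochberg adjustment over all genes tested and a threshold of 0.05. The sexes were compared within each age, and age and its interaction with sex in 1 fit of 12 libraries. The SE of a log2 fold change is its size divided by the root of the F statistic. The neuronal, muscle and photoreceptor scales replaced the TMM factors by the geometric mean of listed reference genes with at least 10 counts in every library. DESeq2 1.42.0, limma-voom, other scalings and filters, and leaving out each library were the alternatives. The code of the fits was also run on simulated data with known fold changes. These had the same fixed dispersion for all genes and few changed genes, unlike the present data. They therefore do not measure the error rates of the tests here. CPM of single genes are TMM-scaled over all 12 libraries. Summed CPM of the marker and reference lists are over total counts, without TMM. Plots were made with Python 3.11.15 and matplotlib 3.10.9.

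All 36 members are counted in each comparison. Named with values in each comparison were elav, nSyb, Syt1, brp, VGlut, VAChT, ChAT, Gad1, ple, para, Sh, Rdl and nAChRalpha1, and the 4 members with the highest and the 4 with the lowest log2 fold change on the TMM and the neuronal scale. For the sex difference, members with 0 counts in a library and members whose direction differs between ages or scales were also named. Not all of them have a value given on each scale. Of other lists, the named genes are called ones at the ends of the range, up to 2 in each direction, and Snap24, Snap29 and Syb. The members, the reference genes and all lists were chosen with earlier results of these data known. Replicates come from independent experiments, and the p-values set the difference between groups against the spread between replicates. In the edgeR fits that spread is estimated with information shared over all genes. On the scales of reference genes the error of the scale itself does not enter the p-values.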

Additional observations from a re-analysis of the deposited data

How the results depend on the processing

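The counts in this section are of members. Shares over all genes were taken for the main fits and for the alternatives given with a share above. For the other alternatives no share was taken, so their counts are not read as a result about the members. Alternatives moved few of the sex differences against all mRNA. At 10 days the members called lower were 1 with an absolute log2 fold change above 1, RLE or upper quartile scaling, DESeq2, all 12 libraries in 1 fit or a replicate block (1 to 2 when leaving out each library), since Csp was lost. The median was 3.17 with RLE, upper quartile and DESeq2 factors and 2.80 with total counts, where the median of all genes moved by 0.21 and fell by 0.16, and the members minus all genes stayed at 1.90 to 1.91. At 30 days 1 was called lower with an absolute log2 fold change above 1 or upper quartile factors. dlg1 turned to -0.031 at 10 days and -0.21 at 30 days with total counts. The median over the members at 30 days was 3.69 to 4.19 over the left-out libraries. The cause was not tested.

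Of the age differences, in females 1 member was called lower with RLE or upper quartile factors, 0 with total counts, the 6 libraries alone, limma-voom or the replicate block, and 14 with DESeq2 (1 to 8 over left-out libraries, median -1.21 to -0.70). In males 1 member was called higher with the 6 libraries alone or limma-voom. For the interaction 6 members were called higher with DESeq2 (0 to 3 over left-out libraries, median 0.72 to 1.31). Over left-out libraries SerT ranged from -0.35 to 0.83 in the interaction, Rdl from -0.23 to 0.25 in males, and ple from -0.45 to 0.61 in females on the neuronal scale, with the change of sign without female replicate 3, male replicate 1 and female replicate 3 of 30 days. Whether same-numbered libraries come from the same experiment is not stated in the sources used here. The deviations of same-numbered libraries correlated at -0.33 to 0.084, and 0 of 12 pairs exceeded 0.1. No shared shift was seen, but this cannot exclude a pairing, and the main tests were unpaired.

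On the neuronal scale the higher calls were 1 with the replicate block at 10 days (1 to 5 over left-out libraries), and at 30 days 5 with every second reference gene or the replicate block and 6 with limma-voom (0 to 4). The main fits of that scale called 22.3% of all genes higher at 10 days and 20.7% at 30 days. With age, limma-voom called 1 higher in males, 0 lower in females and 1 lower in the interaction. Over left-out libraries the calls in females were 0 to 4 higher and 0 to 1 lower, with medians from -0.06 to 0.21, and 0 to 1 lower in the interaction. With age in females the main fit called 38.5% of all genes higher and 1.2% lower. On the muscle scale 0 members were lower with age in females with limma-voom or the replicate block (median -0.99 to -0.60 over left-out libraries). On the photoreceptor scale the replicate block gave 1 higher at 10 days and 0 with age in females, and over left-out libraries higher calls were 0 to 2 at 10 days, 0 to 9 at 30 days and 0 to 5 with age in females, with lower calls of 0 to 1 there. The main fits of the photoreceptor scale called 22.4% of all genes higher at 10 days, 20.8% at 30 days and 36.4% with age in females. The medians on that scale ran from 0.021 to 0.41 at 10 days, 0.24 to 0.72 at 30 days and 0.021 to 0.47 with age in females.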
